A study of Mus musculus with 6 samples.

Results

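The pituitary hormone genes described here are Gh, Prl, Cga, Tshb, Lhb and Fshb, and they were chosen by their symbols, as all probes whose gene name in the scanner files equals one of them. They are 6 of the 37074 gene names on the array and have 8 of its 56605 probes, with 2 probes each for Tshb and Lhb and 1 for each of the others. The RNA came from the hypothalamus of male C57BL/6J mice made obese with a diet of 60 kcal% fat (DIO mice), started at an age of 6 weeks and kept up for 16 weeks. A group of 3 mice received vehicle (0 mg kg−1) and a group of 3 received GSK-J4 at 30 mg kg−1, an inhibitor of the demethylases that remove methyl groups from lysine 27 of histone H3. All mice were on the same diet and none was lean. The tissue was taken at ZT 6 h, in hours after lights on, and the RNA of a different mouse was hybridized to each of the 6 arrays. The series text places the tissue 4 d after exposure, and the methods describe daily injections over 21 d.

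These hormones are made in the anterior lobe of the pituitary, a gland that hangs below the hypothalamus on a stalk. Gh encodes growth hormone and Prl encodes prolactin, each a single chain. Cga encodes the alpha subunit that is shared by the glycoprotein hormones, and Tshb, Lhb and Fshb encode the beta subunits that make it into thyrotropin, luteinizing hormone and follicle-stimulating hormone. The hypothalamus controls the cells that make them through releasing and inhibiting factors such as GHRH, somatostatin, TRH, GnRH and dopamine. In the comparison of the 2 groups, the question asked here of these genes was whether their RNA was measurable in the dissected tissue, and whether its level differed between arrays labelled GSK-J4 and arrays labelled vehicle.

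Of the 6 hormone genes, Lhb alone had a probe with a signal well above background on all 6 arrays. That probe did not differ between the groups beyond the spread of the arrays. The probes of Gh, Prl, Cga and Fshb passed the background mark on 0 of the 6 arrays. A Tshb probe passed it on 1 array. RNA of Gh and Prl, the most abundant products of the gland, was thus not measurable in these dissections.

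The probes are shown for Lhb, which was detected, and for Gh, which was not. The files place each across more than 1 exon, since its genomic span is longer than its 60 bases. Both are given 5′ to 3′ as the files have them, in lower case.
Lhb A_51_P476529: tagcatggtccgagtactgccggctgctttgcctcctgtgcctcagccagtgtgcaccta
Gh A_51_P104687: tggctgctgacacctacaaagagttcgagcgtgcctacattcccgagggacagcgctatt
On mm9, the Lhb probe lies at chr7:52676746-52676958 on the plus strand, a span of 213 bases. The Gh probe lies at chr11:106162492-106162735 on the minus strand over 244 bases. Their GC contents are 60% and 55%. No other probe on the array shares a run of 15 bases, on either strand, with the Gh probe or with either Tshb probe. The detected Lhb probe shares such a run with 1 other probe, that of BC025446, which was well above background on 1 array and had a normalized log2 signal between 1.88 and 4.04.

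Some facts of the arrays bear on each value. All 3 vehicle arrays share slide 1 and scan 1, and all 3 GSK-J4 arrays share slide 2 and scan 2, so slide and treatment cannot be told apart. The 75th percentile of the signal before normalization was 787 to 916 with vehicle and 406 to 461 with GSK-J4. Of all probes, 62.8% to 63.6% were well above background on the vehicle arrays and 57.7% to 58.7% on the GSK-J4 arrays. Vehicle 1 stood apart in genes of the choroid plexus, the tissue that secretes cerebrospinal fluid, as given with the prolactin receptor below. Of the 12 hypothalamic marker genes, 7 had a kept probe, meaning one that was well above background on every array of one group or of both, beside 59.7% of all gene names on the array. Avp, Pmch and Trh, which encode vasopressin, melanin-concentrating hormone and TRH, were each well above background on 3 of the 6 arrays, and Sim1 and Nkx2-1 on none. All 8 marker genes of cortex and striatum found on the array had a kept probe, and the cortical gene Neurod6 lay between 11.77 and 12.46. The RNA is of bulk tissue, in which fewer cells of a type and less RNA per cell cannot be told apart.

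Growth hormone came first among the hormones examined, as it is a major secreted product of the gland. The Gh probe had normalized log2 signals of 2.05, 1.95 and 1.86 with vehicle and 1.89, 2.64 and 1.97 with GSK-J4. On 5 of the 6 arrays these are surrogates, values that Feature Extraction writes in place of a signal that is not above background, and GSK-J4 2 was the exception. On GSK-J4 2 the signal before normalization was 4.85, and 9.09% of the 308 negative control spots of that array were at least as bright. Over the 6 arrays that share had a median of 47.6%, so a typical Gh value lay in the middle of the negative controls.

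Prolactin was not detected either, although 2 vehicle arrays gave a weak signal. The Prl probe, at chr13:27156985-27157044, had normalized log2 signals of 3.18, 2.72 and 1.91 with vehicle and 1.95, 1.97 and 1.90 with GSK-J4. Vehicle 1 and vehicle 2 were the arrays on which its signal was positive and significant against the background, a weaker condition than well above background, with 12.4 and 9.64 before normalization. Vehicle 3 lay among the GSK-J4 arrays, all of which carried surrogates. On vehicle 1, 0.974% of the negative control spots were at least as bright as the Prl probe, and on vehicle 2 it was 3.90%, compared with 49.0% to 71.8% on the other 4 arrays. The lowest signal that was well above background was 19.3 on vehicle 1 and 22.8 on vehicle 2, both higher than Prl.

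The shared alpha subunit lay at the floor in the same way. The Cga probe, at chr4:34854544-34854603, had normalized log2 signals of 2.23, 2.10 and 2.09 with vehicle and 1.97, 2.04 and 2.98 with GSK-J4. GSK-J4 3 was the array with a signal in place of a surrogate, 5.18 before normalization, and 3.25% of its negative control spots were as bright. Fshb, the beta subunit of follicle-stimulating hormone, was on no array positive and significant. Its probe at chr2:106896400-106896459 lay between 1.89 and 1.99, with all 6 values set by a surrogate.

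**Figure D1:**
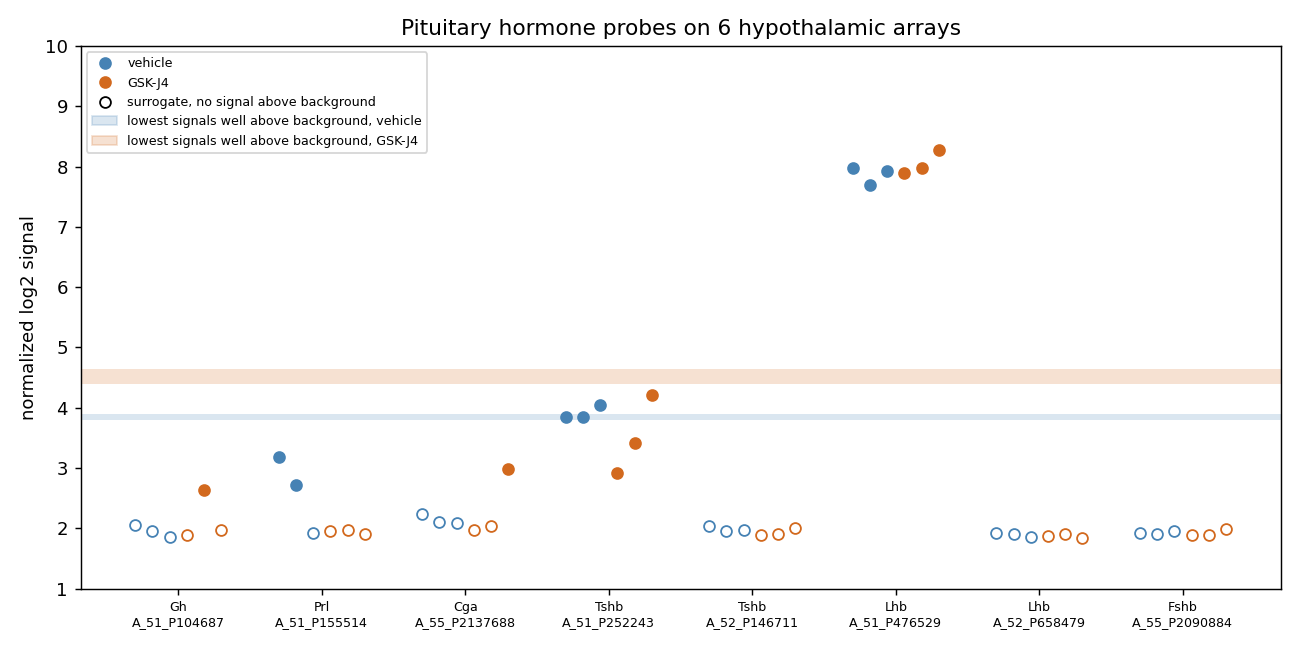
Normalized log2 signal (y axis) of the 8 hormone probes (x axis), with 1 point for each array, vehicle in blue and GSK-J4 in orange and open points for surrogates; the bands span, for each group, the lowest signals that were well above background. The Lhb probe A_51_P476529 lay at 7.69 to 8.28 on the 6 arrays, and 32 of the 48 values were surrogates, none of them in that probe.

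The Tshb probes differed, and they lie on opposite strands. The probe that follows the Tshb mRNA, A_52_P146711, lay between 1.88 and 2.04 on the 6 arrays, and all 6 values were surrogates. The other probe, A_51_P252243, is tied to the cDNA record AK036251 and lies at chr3:102583248-102583307. Its coordinates are written in the order of the plus strand, whereas the reference table of promoters places Tshb on the minus strand. The order of the coordinates matched that table for 94.3% of the 2247 probes tied to AK records and for 99.6% of the 24225 tied to RefSeq records. This second probe had normalized log2 signals of 3.85, 3.84 and 4.05 with vehicle and 2.91, 3.42 and 4.21 with GSK-J4. It was positive and significant on all 6 arrays and well above background on vehicle 3, and the groups overlap. Before normalization its signal was 20.2, 22.0 and 22.7 with vehicle and 5.69, 7.83 and 12.0 with GSK-J4, and it was not kept for the test.

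Lhb, the beta subunit of luteinizing hormone, was the exception among the hormone genes, in 1 of its 2 probes. The Lhb probe A_51_P476529 had signals before normalization of 348, 322 and 327 with vehicle and 169.6, 184 and 204 with GSK-J4. No negative control spot was as bright on any array, and the Lhb signal was 48.3 to 83.2 times the median of those spots. The signal was lower on every GSK-J4 array than on every vehicle array, and so was the signal of these arrays as a whole. The mean fell to 0.560 of that of vehicle, from 332 ± 13.7 to 186 ± 17.4 (SD, n = 3), while the mean 75th percentile of the arrays fell to 0.527. As a share of the 75th percentile of its own array, Lhb was at 43.3%, 35.2% and 41.5% with vehicle and at 36.8%, 40.6% and 50.3% with GSK-J4, and the groups overlap.

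**Figure D2:**
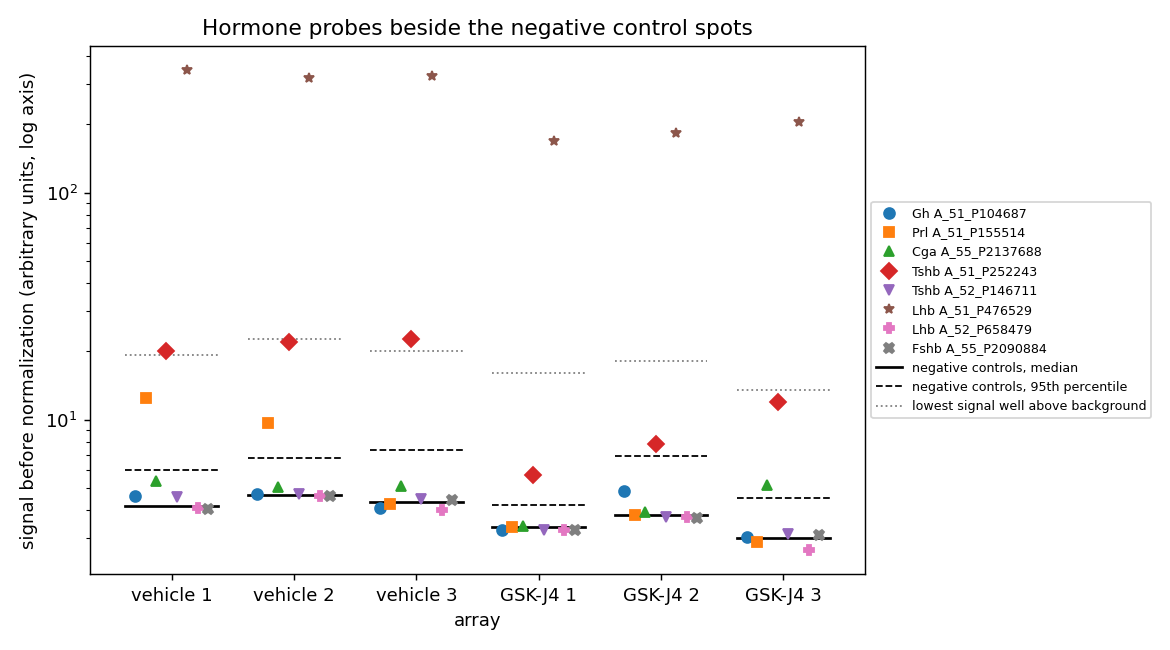
Signal before normalization (y axis, log scale, arbitrary units) of the 8 hormone probes on each array (x axis), beside the median (solid line) and 95th percentile (dashed) of the 308 negative control spots and the lowest signal that was well above background (dotted). The stars of Lhb probe A_51_P476529, at 169.6 to 348, lie above all lines on each array, and Gh, Fshb and the other Lhb probe lie near the solid line on most arrays.

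After normalization the level of Lhb was close to the same on the 6 arrays. Its normalized log2 signal was 7.98, 7.69 and 7.92 with vehicle and 7.89, 7.97 and 8.28 with GSK-J4, and the GSK-J4 values enclose those of vehicle 1 and vehicle 3. The highest array, GSK-J4 3, and the lowest, vehicle 2, lay 0.59 apart on the log2 scale. The SD within a group was 0.15 with vehicle and 0.21 with GSK-J4 on the log2 scale, compared with median SDs of 0.11 and 0.16 over all kept probes. The deposited table of normalized values differed from the values given here by at most 0.0014 in any hormone probe.

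Lhb did not pass the test between the groups. Its log2 difference, GSK-J4 minus vehicle, was 0.18 ± 0.14 (SE), with a 95% interval of -0.15 to 0.52, that is, from 0.898-fold to 1.43-fold. The adjusted p was 0.375 by limma with Benjamini-Hochberg adjustment over the 34443 kept probes. The exact permutation test over 3 arrays against 3, two-sided, gave p = 0.5, where the smallest p it allows is 0.1. With 1 probe tested, 0 hormone probes were called at an adjusted p of at most 0.05, beside 8.38% of all kept probes called higher and 8.4% called lower with GSK-J4. Those shares rest on each vehicle array, since without vehicle 1, 2 or 3 the calls over all kept probes were 2, 5 and 2 higher and 9, 23 and 17 lower, and the methods' t-test called 34 higher and 25 lower. The study's own thresholds ask for 1.5-fold or more with p not above 0.05 before adjustment, and 0 hormone probes met them, beside 12.7% of the kept probes. Unadjusted p-values under 0.05 were 0 as well, by limma and by the methods' t-test, and also 0 by limma with all 8 probes tested without the filter. Over all kept probes, 45.6% had groups that do not overlap, and those of Lhb do.

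The base composition of the probes moves with the difference between these groups, and the Lhb probe is rich in G and C. Kept probes above 55% GC had a median log2 difference of 0.25, and those of up to 35% GC had -0.16. The Lhb difference of 0.18 is therefore no larger than the median of the probes of its own composition. With a correction for GC content within each array, the Lhb difference turned to -0.11, with an adjusted p of 0.637 by limma. The part of base composition in the difference was not tested further.

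Of the other probes near Lhb, that of Ruvbl2 was well above background on all 6 arrays. The probe A_52_P658479 is also named Lhb, lies 2379 bases before the detected one at chr7:52674214-52674367, and is tied to a predicted transcript, XM_003688836. Its signal lay between 1.84 and 1.93, with all 6 values set by a surrogate. A probe of the cDNA record AK138425, 162 bases before the detected probe and on the same strand, passed the background mark on 0 arrays, with values of 2.11 to 3.42. The probe of Ntf5, a neurotrophin gene, passed it on 1 array of each group, with values of 3.50 to 5.72. On the other side, 315 bases away and on the minus strand, the probe of Ruvbl2, a helicase subunit of chromatin remodelling complexes, lay between 10.86 and 11.31. Ruvbl2 differed by 0.14 on the log2 scale with an adjusted p of 0.468 by limma. In the reference table Lhb stands between Ntf5 and Ruvbl2. Whether RNA of a neighbouring transcript enters the Lhb signal was not tested.

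**Figure D3:**
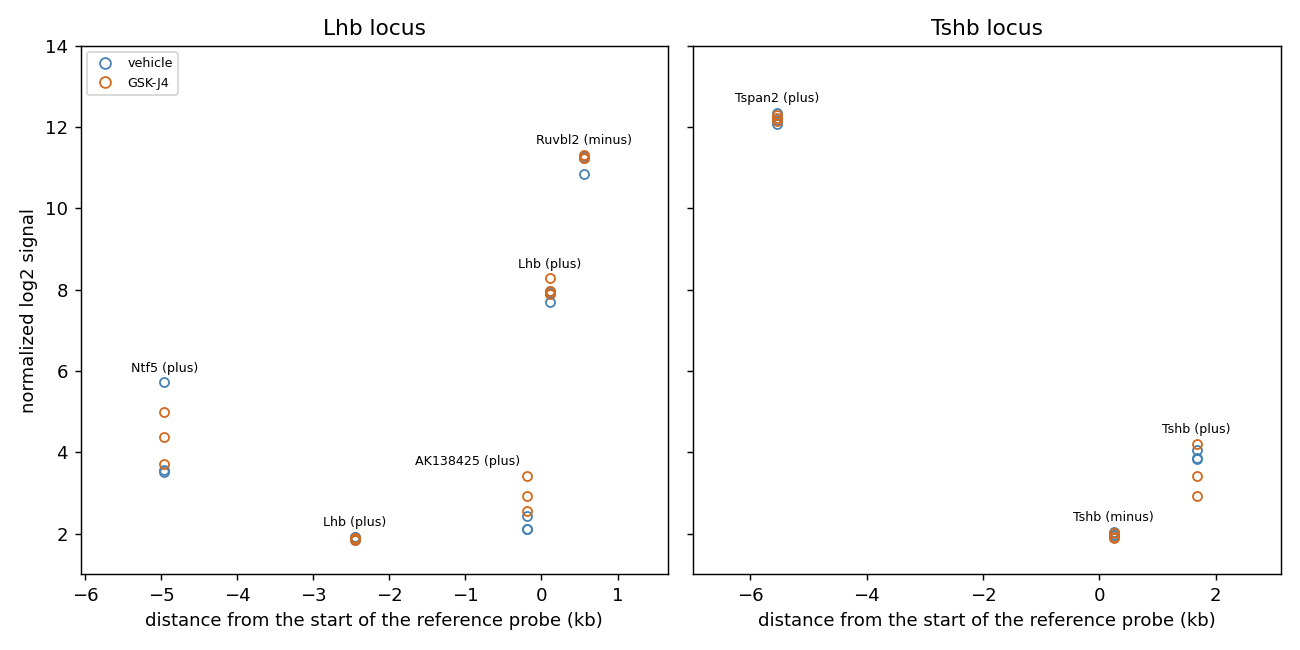
Normalized log2 signal (y axis) of each array for the probes within 10000 bases of the detected Lhb probe (left) and of Tshb probe A_52_P146711 (right), by the distance of the probe's middle from the start of that reference probe in kb (x axis), with the strand in brackets. At the Lhb locus the signal is high in Lhb probe A_51_P476529 and in Ruvbl2, and at the Tshb locus in Tspan2 at 12.08 to 12.34, whereas the Tshb probe on the plus strand lies at 2.91 to 4.21.

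Across the 6 arrays, the genes whose level ran most like that of Lhb were chosen by Pearson's r among 25453 probes that were well above background on all arrays and had at least 50% of the range of Lhb. They were a probe named NAP030161-1 (r = 0.995), the ribosomal protein gene Rps21 (r = 0.995) and Abhd17c (r = 0.994), a depalmitoylase gene. In all, 81 of these probes had an r of at least 0.95. The 6 points are 3 arrays on each of 2 slides, so that this is a description with no test. None of the 3 passed the test between the groups, with log2 differences of 0.11 to 0.15.

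The genes that mark the cells of the anterior and intermediate lobes were sparse on the same arrays. Of 21 such genes, 9 had a kept probe and 11 stayed under the background mark throughout, where 59.7% of all gene names on the array had a kept probe. Pou1f1, the factor on which the cells that make growth hormone, prolactin and thyrotropin depend, lay between 2.10 and 2.86 in its 2 probes. Pitx1, Tbx19, Hesx1, Pax7, Neurod4 and Lhx4 were on no array well above background, and neither were Ghrhr and Gnrhr, the receptors on which the hypothalamus acts to release growth hormone and gonadotropins. Drd2, which in the gland carries the brake of dopamine on prolactin, was not well above background either. The kept genes were Pomc, Crhr1, Gata2, Lhx3, Foxl2, Nr5a1, Trhr, Sstr5 and Avpr1b, the last through the vehicle arrays only. Several of these kept genes are also used by neurons of the hypothalamus, Pomc and Nr5a1 among them.

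Foxl2 and Nr5a1 are factors of the gonadotrope, the cell that makes Lhb and Fshb. Foxl2 lay between 14.68 and 15.10, with a log2 difference of 0.17 and an adjusted p of 0.283 by limma. The GC content of its probe is 81.7%, and kept probes above 55% GC had a median log2 difference of 0.25. Whether base composition enters the Foxl2 signal was not tested. The kept Nr5a1 probe lay between 5.65 and 6.95, and differed by -0.30 with an adjusted p of 0.550. Gnrhr, which that cell also needs, had 3 probes, and their values were between 1.88 and 3.69. Of the 13 kept probes of the pituitary list, 1 was called higher, beside 8.38% of all kept probes, and 0 were called lower. It was that of Pomc, the precursor of ACTH in the gland and of melanocortins in hypothalamic neurons, which rose by 0.86 ± 0.14 (SE) from 7.79, 8.00 and 8.03 with vehicle to 8.74, 8.60 and 9.05 with GSK-J4, with an adjusted p of 0.0221 by limma. Its groups do not overlap, and the call held under 12 of 19 alternatives but was lost without any one of the vehicle arrays. The median log2 difference of the 13 kept pituitary probes was 0.17, beside 0.02 over all kept probes. Counted in it are Lhx3 probe A_55_P2031272, Crhr1 probe A_55_P2741330 and the Avpr1b probe. These were kept only through vehicle, the group in which they are higher.

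The receptors of the hormones were present for growth hormone and prolactin. Of their 6 kept probes, 0 were called, beside 8.38% of all kept probes called higher and 8.4% called lower. Tshr, the thyrotropin receptor, lay between 1.91 and 1.99, and the 3 probes of Lhcgr, the receptor of luteinizing hormone, between 2.13 and 3.91. All 4 of these probes stayed under the background mark. Fshr was well above background on 1 array of each group, with values of 2.05 to 5.01. Of the 6 kept probes, 3 had groups that do not overlap, beside 45.6% of all kept probes. These include Ghr probe A_52_P633550, which was kept only through the group in which it is higher. The median difference of the 6 was -0.55. It includes that Ghr probe as well as both Prlr probes, and the latter rest on vehicle 1 as given below.

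Ghr, the growth hormone receptor, has 4 probes, which did not move together. The brightest, A_51_P499854, had values of 8.76, 8.38 and 8.24 with vehicle and 8.23, 8.38 and 8.62 with GSK-J4, and a log2 difference of -0.05 with an adjusted p of 0.860 by limma. A_52_P633550 lay at 7.32, 7.13 and 7.10 with vehicle and at 6.19, 6.65 and 4.66 with GSK-J4. It was well above background on 3 vehicle arrays and on 2 GSK-J4 arrays. It was thus kept only through the group in which it is higher, and no test is given. A_52_P680941 lay at 5.33, 5.37 and 5.26 with vehicle and at 5.98, 5.73 and 5.58 with GSK-J4. This was the probe nearest to a call, with a difference of 0.44 and an adjusted p of 0.0544, and it was called under 3 of its 18 alternatives. The last, A_55_P2500473, differed by 0.23 with an adjusted p of 0.132. Of the Ghr probes with a test, the brightest differed by -0.05 and the others by 0.44 and 0.23. None of them passed an adjusted p of 0.05, and no direction is given for the gene.

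Prlr, the prolactin receptor, which the choroid plexus carries in large amount, was set by 1 array. The probe A_66_P139387 lay at 11.51 on vehicle 1, and at 7.41 and 7.50 on the other vehicle arrays and 8.21, 7.54 and 7.52 on the GSK-J4 arrays. The second kept probe, A_52_P458279, lay at 8.88 on vehicle 1 and between 5.52 and 6.44 on the others. The third was well above background on vehicle 1 alone, at 6.35. The differences were -1.05 and -1.09 with adjusted p-values of 0.538 and 0.386 by limma. Without vehicle 1 they were 0.31 and -0.12, with adjusted p-values of 0.441 and 0.807.

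The markers of the choroid plexus were highest on the same array. All 10 such genes are on the array, 9 of them have a kept probe, and in all 9 the brightest probe was highest on vehicle 1. Their mean normalized log2 signal was 13.27 on vehicle 1, and 8.16 to 9.46 on the other 5 arrays. Ttr, transthyretin, lay at 16.15 on vehicle 1, and at 10.42 to 13.24 elsewhere. Of the choroid plexus genes, Aqp1 and Kcne2 had the largest differences. Kcne2 differed by -1.65 with an adjusted p of 0.576 by limma. Aqp1 was well above background on 3 vehicle arrays and on 2 GSK-J4 arrays. It was kept only through the group with the higher mean, and no test is given. In all, 0 of the list were called, beside 8.38% of all kept probes called higher and 8.4% called lower. Lhb did not follow this pattern, since vehicle 1 ranked second on that probe, and without vehicle 1 the Lhb difference was 0.24 with an adjusted p of 0.354. Whether choroid plexus tissue accounts for the Prlr values was not tested.

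**Figure D4:**
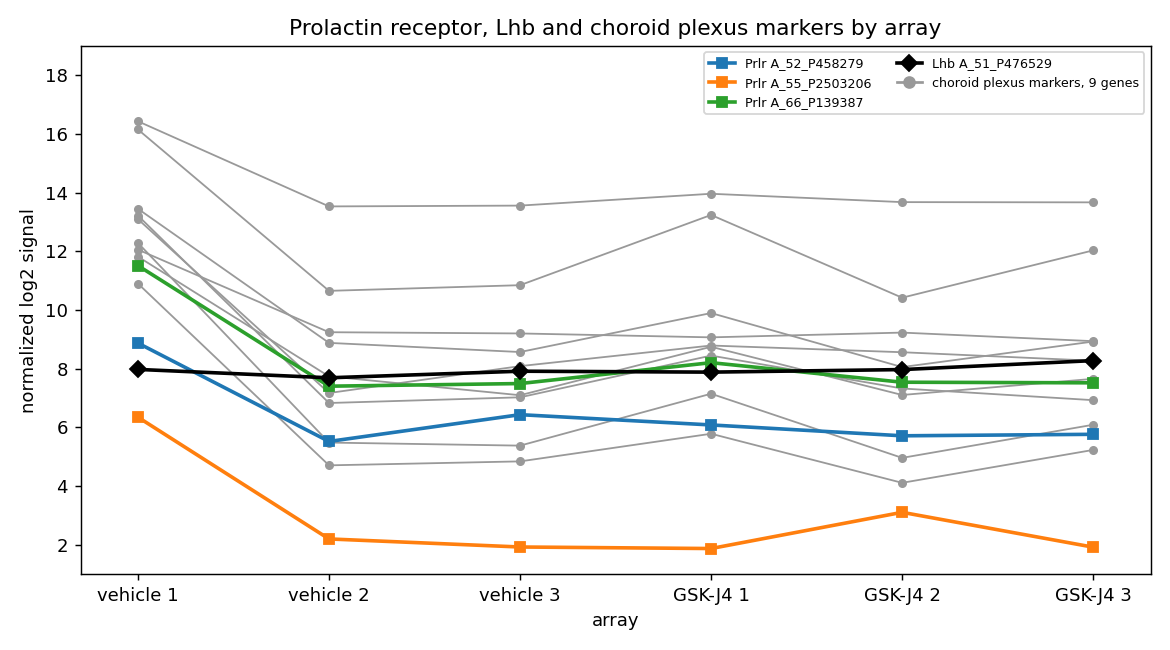
Normalized log2 signal (y axis) of the 3 Prlr probes, of Lhb and of the brightest kept probe of 9 choroid plexus genes on each array (x axis). The Prlr probes and the choroid plexus genes are highest on vehicle 1, where Prlr probe A_66_P139387 reaches 11.51, and Lhb stays at 7.69 to 8.28.

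The factors by which the hypothalamus controls these hormones are made in the dissected tissue itself, and 6 of the 7 genes had a kept probe. Ghrh, which encodes the releasing hormone of growth hormone, was called. Its probe A_51_P108428 lay at 4.69, 4.87 and 4.66 with vehicle and at 5.49, 5.23 and 5.28 with GSK-J4, so the groups do not overlap. The probe's signal rose by 0.59 ± 0.11 (SE) with an adjusted p of 0.0250 by limma. These values are near the lowest signals well above background, which were 3.79 to 3.90 with vehicle and 4.39 to 4.64 with GSK-J4. Whether that shift of the floor enters the Ghrh difference was not tested. The second Ghrh probe differed by 0.39 with an adjusted p of 0.155, and its groups overlap. Sst, the somatostatin that holds growth hormone back, lay between 15.14 and 15.36 and differed by 0.08 with an adjusted p of 0.502. Scaling of the arrays to their 75th percentile gave Sst a difference of 0.53 and an adjusted p of 0.0203. The call of Ghrh held under 10 of 18 alternatives. It was lost with normexp, where the difference was 0.23 with an adjusted p of 0.0734, with the methods' t-test, with the replicate block and without any one of the vehicle arrays.

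For the gonadotropins the control genes were not called. The kept probe of Gnrh1, which encodes GnRH, lay at 7.79, 7.67 and 7.70 with vehicle and at 6.94, 7.37 and 7.68 with GSK-J4, and differed by -0.39 with an adjusted p of 0.193 by limma. The kept probe of Kiss1, the kisspeptin gene upstream of GnRH, lay at 4.63, 3.67 and 4.41 with vehicle and at 5.46, 4.97 and 5.34 with GSK-J4. This probe was well above background on 2 vehicle arrays and on 3 GSK-J4 arrays. It was thus kept only through the group in which it is higher, and no test is given. The other Kiss1 probe, A_52_P237176, was not kept. It lay between 3.07 and 4.93, and its groups overlap. Th, the enzyme that neurons need to make the dopamine that holds back prolactin, differed by 0.39 with an adjusted p of 0.0897, and Crh, which drives the cells that make ACTH, by 0.41 with an adjusted p of 0.130. Trh, which releases thyrotropin, was not kept and lay between 3.56 and 6.59. The median difference of the 7 kept control probes was 0.39, with 1 called higher and 0 lower, beside 8.38% and 8.4% of all kept probes. Groups did not overlap in 4 of the 7, beside 45.6% of all kept probes. The kept Kiss1 probe is counted in that median and among these 4.

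**Figure D5:**
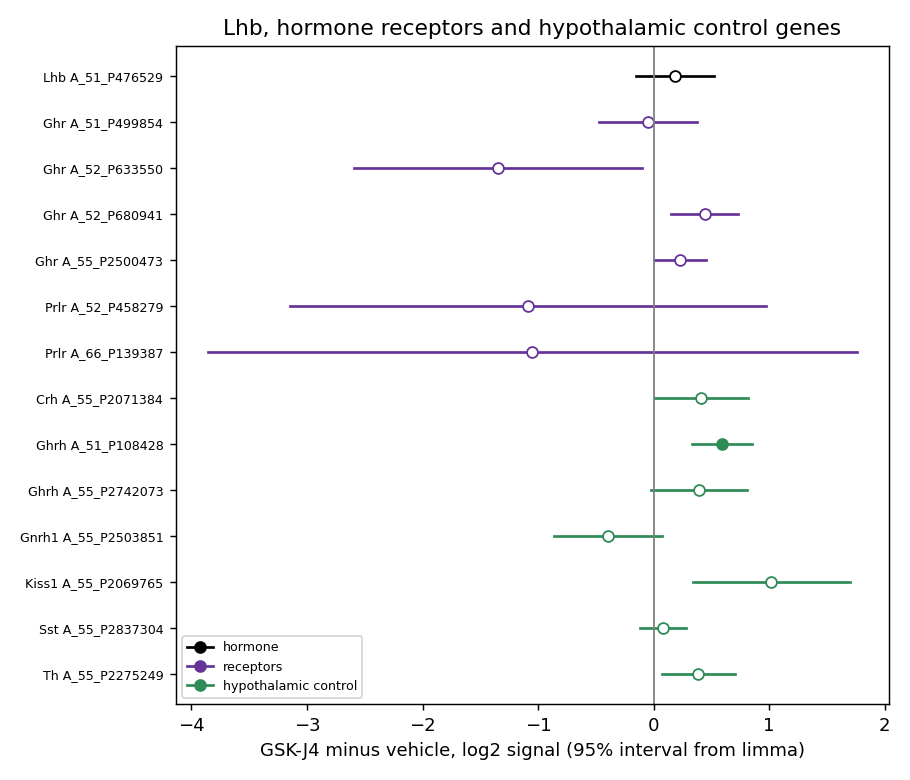
Log2 difference, GSK-J4 minus vehicle, with the 95% interval from limma (x axis) for each kept probe of Lhb, of the hormone receptors and of the hypothalamic control genes (y axis); filled points passed an adjusted p of 0.05. The interval of Lhb runs from -0.15 to 0.52, those of Prlr are wide, and the filled point is that of Ghrh probe A_51_P108428 at 0.59. Kiss1 probe A_55_P2069765 and Ghr probe A_52_P633550 were kept only through the group in which they are higher, and their intervals are no test.

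Genes that act behind the growth hormone and prolactin receptors were all measured, with 10 of 10 kept, and 3 of the 18 kept probes were called, all higher with GSK-J4, beside 8.38% of all kept probes called higher and 8.4% called lower. Stat5a, a transcription factor that both receptors activate, rose by 0.50 in one probe, from 5.83 to 5.88 with vehicle to 6.25 to 6.45 with GSK-J4, with an adjusted p of 0.0210 by limma. Its brighter probe, A_66_P115018, differed by 0.58 with an adjusted p of 0.562, and its groups overlap. Socs1, which damps this signal, rose by 0.31 with an adjusted p of 0.0359. Igf1, the growth factor that growth hormone induces, rose by 0.50 in one probe with an adjusted p of 0.0283. Its brightest probe differed by -0.04 with an adjusted p of 0.920. The remaining probe, A_52_P306327, lay at 5.23, 5.10 and 5.11 with vehicle and at 4.84, 4.34 and 5.09 with GSK-J4. It was kept only through the group in which it is higher, and no test is given. The calls of Stat5a, Socs1 and Igf1 held under 11 of 18, 6 of 19 and 8 of 18 alternatives, and were lost without any one of the vehicle arrays. With normexp, Stat5a differed by 0.23 and Socs1 by 0.17, with adjusted p-values of 0.0596 and 0.0894 by limma. The median difference of the 18 probes was 0.21. Igf1 probe A_52_P306327 is counted in that median and among the 18. The level of a receptor or of a gene behind it is no measure of hormone from the blood, which was not measured here.

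Thyrotropin made at the upper end of the gland acts on cells of the hypothalamus next to it. Of the 7 kept probes of genes listed for this action, 0 were called, beside 8.38% of all kept probes called higher and 8.4% called lower. Dio2, the enzyme that activates thyroid hormone, lay between 12.84 and 13.46 and differed by 0.42 with an adjusted p of 0.0516 by limma, and Dio3, the enzyme that inactivates it, by 0.68 with an adjusted p of 0.324. Mtnr1a, a melatonin receptor of that part of the gland, lay between 1.88 and 2.29 in its 3 probes and stayed under the background mark. Gpha2 and Gphb5, subunits of a related glycoprotein hormone, were kept through the vehicle arrays, with values of 3.97 to 4.54 and 3.48 to 4.57. Gpha2 was well above background on 1 GSK-J4 array and differed by 0.10 with an adjusted p of 0.705. Gphb5 was well above background on 0 GSK-J4 arrays, so it was kept only through the group in which it is higher. Neither a fold nor a test is given for it.

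The placenta uses a large family of relatives of Prl. Of the 23 on the array, 20 were under the background mark on every array, and 2 had a kept probe, a share below that of all gene names. Prl2c1 was well above background on all 6 arrays, between 9.64 and 10.44, and was called higher by 0.51 with an adjusted p of 0.0499 by limma, a call that held under 4 of 19 alternatives and was lost with the deposited table at 0.0501. Prl3d1 was well above background on the 3 vehicle arrays, between 4.00 and 4.40, and on 0 GSK-J4 arrays, so it was kept only through the group in which it is higher. The lowest signals well above background on the GSK-J4 arrays were 4.39 to 4.64, above its vehicle mean, and neither a fold nor a test is given. Prl3b1 was well above background on 2 vehicle arrays. Genes of this family are alike in sequence, and whether their probes share signal was not tested.

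Of the 6 genes listed for the posterior lobe and for tanycytes, the cells that line the floor of the ventricle beside the gland, all had a kept probe, but several, such as Gfap, are used widely in the brain. Rax, a gene of tanycytes, lay at 3.86 to 4.17 with vehicle and at 4.80 to 5.55 with GSK-J4 in one probe, and its other probe was not detected. The first was well above background on 2 vehicle arrays and on 3 GSK-J4 arrays, so it was kept only through the group in which it is higher, and no test is given. Among the hypothalamic markers, Npy rose by 0.42 with an adjusted p of 0.0269 by limma beside Pomc. In cortex and striatum, Neurod6 fell by 0.47 with an adjusted p of 0.0336. With the GC correction both calls were lost, with differences of 0.19 for Npy and -0.30 for Neurod6 and adjusted p-values of 0.159 and 0.105. A Tbr1 probe rose by 0.97 with an adjusted p of 0.0457, a difference that was 0.39 with normexp and 0.93 with an adjusted p of 0.0590 with the GC correction, while the brighter Tbr1 probe differed by -0.06 with an adjusted p of 0.801. Blood markers were called 0 times in 6 kept probes, beside 8.38% of all kept probes called higher and 8.4% called lower. Hbb-b2 and Hbb-bt differed by -0.53 and 0.08. Of the 11 probes of these lists with an adjusted p of at most 0.05, 0 stayed called without any one of the vehicle arrays. Without GSK-J4 1, 1 stayed called. Prl3d1 and Rax are counted among the 11, although they were kept only through the group in which they are higher.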

How the data were processed

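Labelled RNA of 6 hypothalami, 3 labelled GSK-J4 and 3 labelled vehicle, was measured on 1-colour Agilent arrays. The authors deposited the background-corrected intensity of each spot from Agilent Feature Extraction 10.7.1.1, named in the submitters' processing notes, together with detection flags and, per the file headers, the surrogate signal used where a spot was not above background. The deposited series table has log2 values, quantile normalized in GeneSpring per the methods, and 0 of its columns were left unassigned. Control spots and outlier flags were removed. The intensities were put on the log2 scale, averaged over a probe's spots and quantile normalized over the 6 arrays. A probe was kept if every array of one group or of both was well above background, which held for 34443 of 56605. Groups were compared with limma 3.58.1 in R 4.3.3 (lmFit and eBayes, two-sided), with Benjamini-Hochberg adjustment over all kept probes. Coordinates come from the files and are on mm9. Strands and gene order come from RefSeq tables on GRCm38.p6, used for no coordinates.

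The symbols of the hormones and the gene lists were chosen with earlier results of these data known. Of the lists, genes past an adjusted p of 0.05 are named, otherwise the 2 with the largest differences in their brightest probe, with all receptors, control genes, Pou1f1 and Pomc. The remaining ones named were chosen after their values were seen. Each array holds 1 mouse, and the number of arrays limits the precision. The test was checked on simulated data. Alternatives were scaling to the 75th percentile, normexp with an offset of 50, the deposited table, other filters and flags, other variance models, array weights, the methods' t-test, a replicate block, a GC correction by lowess with a span of 30%, 1 probe per gene, and leaving out each array. Sequences by coordinates were not used here, and some genes and 1 probe sequence are not reported here.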

Additional observations from a re-analysis of the deposited data

How the results depend on the processing

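No hormone probe was called under any of the 19 alternatives, at an adjusted p of 0.05 or at the thresholds of the methods. Lhb probe A_51_P476529 was the only hormone probe tested in most of them. With the positive and significant flag 2 were tested, and without the filter 8, most of them at the floor. The absence of calls therefore says nothing of the hormone genes other than Lhb. The Lhb difference was above 0 under 17 of them. It was -0.11 with the GC correction, alone or with the replicate block, with adjusted p-values of 0.637 and 0.632 by limma, and over all 19 its adjusted p ranged from 0.271 to 0.708. Leaving out 1 array gave differences from 0.07, without GSK-J4 3, to 0.26, without GSK-J4 1. Leaving out vehicle 2 gave 0.10, and the 75th percentile scaling gave 0.08. With the flag for a positive and significant signal in place of well above background, 2 hormone probes were detected, the second being the plus strand probe of Tshb. The count was 1 without any single array. With normexp, the range of Lhb over the arrays was 0.38 on the log2 scale, against 0.59. Replicate numbers are shared by the groups, but the deviations of same-numbered arrays correlated at only 0.0074, 0.026 and 0.082 over 34421 probes. The best match was the own number for replicates 1 and 3 and another number for replicate 2. Whether the numbers pair the arrays is thus not settled. With the replicate number as a block, Lhb differed by 0.18 with an adjusted p of 0.374, and over all probes 0 were called. Of 11 called list probes, between 5 and 10 stayed called under other scalings, the deposited table, flags, GC correction or variance models. By the methods' t-test or with the block, 0 stayed called. The 11 include Prl3d1 and Rax, which were kept only through the group in which they are higher. Signal over background limits what can be said of Gh, Prl, Cga, Tshb and Fshb: levels under the lowest signal well above background, 3.79 to 4.64 in normalized log2, were not measurable here.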
